A study of Mus musculus with 6 samples.

Results

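Collagens are the main structural proteins of the extracellular matrix, and each collagen molecule is a trimer of chains encoded by separate genes. The members here were all genes whose symbol has the form of a collagen chain (Col, a type number, a, a chain number) in both deposited tables. The rule found 44 such genes among 24961 genes named in both tables. They were described by class: 11 fibrillar chains, 9 FACIT chains (fibril-associated collagens with interrupted triple helices), 9 basement membrane chains, 6 beaded filament chains of type VI, 4 transmembrane chains, 3 short-chain network chains and 2 others. A set of 7 chains typical of cartilage cut across these classes.

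Upper (maxillary) first molars were taken from mice at postnatal day 1, and 2 libraries each were made of the genotypes Ascl5WT/WT (control), Ascl5Mut/WT and Ascl5Mut/Mut. The product of Ascl5 is a transcription factor with a basic helix-loop-helix domain, and the labels describe the mutant allele no further. The number of mice or molars behind a library is not stated, so p-values measure only the spread between these libraries, which may be technical. Each deposited table pairs both Ascl5WT/WT libraries with the libraries of a single mutant genotype and has its own scaling. Both mutant genotypes thus share their controls, and they were not tested against each other.

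The procollagen chains fold into a triple helix in the endoplasmic reticulum, where prolines and lysines are hydroxylated. Fibrillar collagens are then trimmed, assembled into fibrils and crosslinked by lysyl oxidases, while type IV collagen forms the sheet-like network under epithelia and around vessels. In a newborn molar, type I and type III collagen are made by the dental papilla and follicle mesenchyme and type I by odontoblasts and bone cells, whereas type XVII anchors the dental epithelium.

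Depth was low, and it limits every value. Low values clustered at multiples of 108.8 to 139.8 normalized counts, taken here as the worth of about 1 read, which gave an estimated 90477 to 117280 reads assigned to genes per library. A floor of 3 such reads was 326 to 419 normalized counts, for counting error only. The strand setting of the counting is not given. Of 24 genes that have a named opposite-strand RNA gene (with a mean of at least 1000 for 1 of the pair), that RNA gene had the higher mean in 14, as for Msx1 with 654, 0, 0 and 0 against 81502, 20145, 26838 and 34738 for Msx1os. Reads of a collagen gene and of the strand opposite to it therefore cannot be told apart in these values. Of the 44 chains, 10 share exon bases with a gene on the opposite strand, for at most 6.07% of their merged exon length (Col9a3, with Tcfl5). Ascl5 itself was listed at 0 in all 6 libraries, so it does not check the genotype labels. Of the markers of a molar, Krt14 (epithelium) stood at 14740 and 13227 in the controls, while Dspp (odontoblasts) stood at 327 and 0.

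Collagen chains together made up 0.588% and 0.935% of all normalized counts in the Ascl5WT/WT libraries, and 1.68% and 1.25% in Ascl5Mut/Mut. In the other table they were 0.585% and 0.93% of the Ascl5WT/WT libraries and 1.33% and 0.928% of the Ascl5Mut/WT libraries. The Ascl5WT/WT libraries differed from each other, and replicate 2 was at the level of Ascl5Mut/WT replicate 2. Of the 44 chains, 23 were above 0 in all 6 libraries and 3 were listed at 0 in all 6 (Col19a1, Col20a1 and Col6a4). A mean of at least 1000 in the 4 libraries of a table, about 7 to 9 estimated reads each, was required for a test. It was reached by 16 chains in the Ascl5Mut/Mut table and 17 in the Ascl5Mut/WT table, 14 of them in both and 19 in either. For Ascl5Mut/Mut, Col2a1 (mean 1205) was just inside this limit and Col25a1 (951) just outside. In the other table these were Col4a4 (1033) and Col11a1 (996).

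Fibrillar chains made up most of the summed collagen values of Ascl5WT/WT molars. Per kilobase of the transcript with the longest coding sequence, Col1a2 had 3075 ± 2116 normalized counts, Col1a1 2952 ± 1319 and Col5a1 2440 ± 945 (SD, n = 2 each). These 3 chains did not differ beyond their spread. Col6a2 (1054 ± 546), Col23a1 (1005 ± 180), Col18a1 (773 ± 118) and Col10a1 (767 ± 493) came next. Both Col23a1 libraries lay above both Col18a1 libraries, while Col6a2 and Col10a1 overlapped with both of these chains. Below them stood Col3a1 at 452 ± 29.7, Col6a1 at 428 ± 40.8, Col4a2 at 363 ± 50.7 and Col17a1 at 352 ± 22.6 per kilobase. Col3a1 and Col6a1 did not differ beyond their spread, nor did Col4a2 and Col17a1, and both Col6a1 libraries lay above both Col4a2 libraries by a narrow margin. Col1a1 and Col1a2 encode the chains of type I collagen, whose usual molecule holds more of the Col1a1 product than of the Col1a2 product. The per-length ratio of Col1a1 to Col1a2 was 1.28 and 0.85 in Ascl5WT/WT, 0.69 and 0.73 in Ascl5Mut/Mut, and 0.78 and 1.51 in Ascl5Mut/WT, so it varied within genotypes.

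In Ascl5Mut/Mut molars, chains of fibrils and of beaded filaments had higher values than in Ascl5WT/WT, and a basement membrane chain and a transmembrane chain had lower values. No chain passed the test. By limma, 0 of the 16 chains tested had a Benjamini-Hochberg adjusted p under 0.05, where 0.856% of 2336 genes did (20 genes), and the smallest adjusted p of a chain was 0.246, for Col1a2. At an unadjusted p under 0.05 there were 7 chains with higher values, where 6.34% of all genes tested were, and 2 with lower values, where 4.84% were. This count of 9 chains was 1 without Ascl5WT/WT replicate 1, 1 without Ascl5Mut/Mut replicate 1, 4 without Ascl5Mut/Mut replicate 2 and 9 without Ascl5WT/WT replicate 2. Both Ascl5Mut/Mut libraries lay above both Ascl5WT/WT libraries for 11 of the 16 chains (22.0% of all genes tested) and below them for 2 (21.8%). The median log2 fold change of the 16 was 1.05, against -0.02 over all genes tested. Chains that passed the limit on the mean through high mutant values are favoured in such counts, and 28 of the 44 were not tested.

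**Figure D1:**
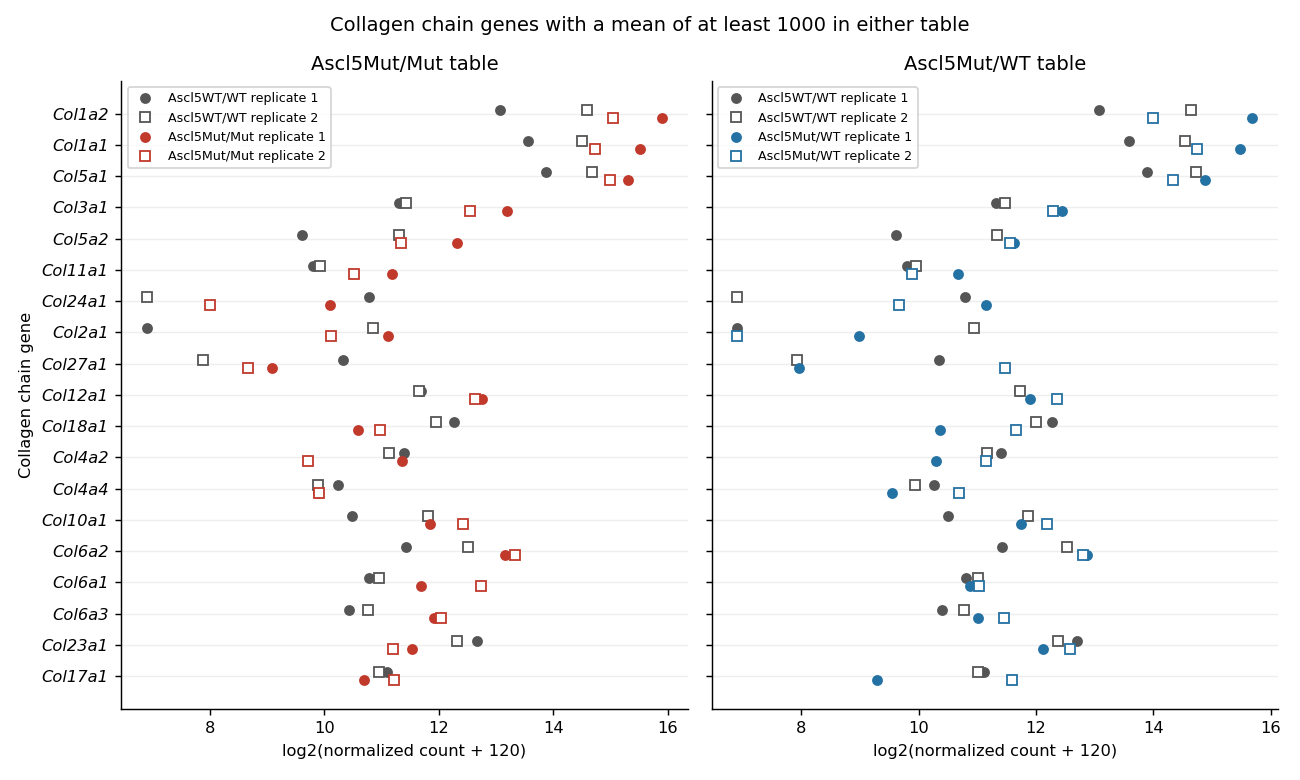
Values of the 19 collagen chain genes that reached a mean of 1000 in either table, by library, grouped by class. The x axis is log2(normalized count + 120), grey symbols are the Ascl5WT/WT libraries, coloured symbols the mutant libraries, filled circles replicate 1 and open squares replicate 2. For Col1a1, Col1a2 and Col5a2, Ascl5WT/WT replicate 2 sits close to the mutant libraries and replicate 1 well below them.

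Promoter sequence was read for the chains listed in the RefSeq table used here (35 of 44, GRCm38.p6). The letters CANNTG, the E-box to which basic helix-loop-helix proteins bind, were searched on both strands in the 250 bases before each start. They occurred in 19 of 38 such windows of the chains (50.0%) and in 66.2% of 32851 windows of all genes. CAGCTG, a form of CANNTG counted within it, occurred in 6 of the 38 (15.8%) against 13%. CCAAT occurred in 13 (34.2% against 33.85%) and TATAAA in 5 (13.2% against 12.4%), also on both strands. A match is a run of letters and not a bound site. The last 150 bases before the start are shown for 4 chains whose Ascl5Mut/Mut and Ascl5WT/WT values did not overlap and whose window holds no annotated exon, 3 of them higher and Col23a1 lower, picked after their values were seen. Capitals mark CANNTG, which this stretch holds 3 times for Col3a1 (chr1:45311388-45311537, plus strand) and not at all for Col5a1 (chr2:27886275-27886424, plus strand), Col6a3 (chr1:90843972-90844121, minus strand) and Col23a1 (chr11:51289770-51289919, plus strand).
Col3a1: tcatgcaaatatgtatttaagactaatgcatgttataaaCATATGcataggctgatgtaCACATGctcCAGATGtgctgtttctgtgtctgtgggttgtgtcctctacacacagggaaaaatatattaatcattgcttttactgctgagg
Col5a1: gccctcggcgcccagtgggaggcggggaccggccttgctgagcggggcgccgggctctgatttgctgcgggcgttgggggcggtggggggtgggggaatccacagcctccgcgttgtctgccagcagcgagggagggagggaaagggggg
Col6a3: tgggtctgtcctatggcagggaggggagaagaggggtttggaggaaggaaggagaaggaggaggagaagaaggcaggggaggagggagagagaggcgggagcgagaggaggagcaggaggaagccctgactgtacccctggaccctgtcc
Col23a1: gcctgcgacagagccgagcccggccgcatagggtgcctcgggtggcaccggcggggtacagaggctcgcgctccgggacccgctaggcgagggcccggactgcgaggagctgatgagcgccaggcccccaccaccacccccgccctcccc

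Type I collagen gave the highest values. Col1a2 (chromosome 6, 4504814 to 4541544, plus strand, GRCm38) had 8445 and 24451 normalized counts in Ascl5WT/WT and 60762 and 33388 in Ascl5Mut/Mut. The mutant libraries were both higher, but Ascl5WT/WT replicate 2 was nearer to them than to replicate 1. Its log2 fold change, on the log2(normalized count + 120) scale as for all below, was 1.64 (SE 0.49, limma adjusted p = 0.246). Col1a1 (chromosome 11, 94936224 to 94953042, plus strand) had 11973 and 23032 against 46509 and 26959, a log2 fold change of 1.09 (SE 0.4, limma adjusted p = 0.358). Without Ascl5WT/WT replicate 2, limma called both, Col1a2 at 2.40 (adjusted p = 9.79e-07) and Col1a1 at 1.55 (adjusted p = 0.00896), with Ascl5WT/WT replicate 1 as the lone control, assumed to vary like the mutant libraries. Col6a2 was called as well in that fit (1.81, adjusted p = 0.0425). None of these calls was made with all 4 libraries or without any other single library.

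Col3a1 (chromosome 1, 45311538 to 45349706, plus strand) encodes the single chain of type III collagen, the fibrillar collagen of soft connective tissue. It had 2398 and 2632 normalized counts in Ascl5WT/WT and 9218 and 5830 in Ascl5Mut/Mut, about 22 estimated reads in each control library. The controls agreed closely and the groups did not overlap. The log2 fold change was 1.5 (SE 0.49, limma adjusted p = 0.285).

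Type V collagen sits inside type I fibrils and sets their diameter. Col5a1 (chromosome 2, 27886425 to 28039514, plus strand) had 14893 and 26129 in Ascl5WT/WT against 40398 and 32207 in Ascl5Mut/Mut, a log2 fold change of 0.87 (SE 0.35, limma adjusted p = 0.387). It shares 212 exon bases, 2.50% of its length, with genes on the opposite strand. Its partner chain Col5a2 had 659 and 2399 against 4964 and 2469, where Ascl5WT/WT replicate 2 and Ascl5Mut/Mut replicate 2 were nearly equal. Per length, Col5a2 stood at 0.06 and 0.12 of Col5a1 in Ascl5WT/WT, and at 0.16 and 0.10 in Ascl5Mut/Mut. Col5a3, the third type V chain, was at or near the floor, with 0 and 472 against 428 and 0.

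Of the other fibrillar chains, Col11a1, a cartilage fibril chain that also occurs in non-cartilage tissue, had 770 and 852 in Ascl5WT/WT and 2203 and 1350 in Ascl5Mut/Mut (log2 fold change 0.99, SE 0.80, limma adjusted p = 0.647). Col2a1, the main fibrillar collagen of cartilage, had 0 and 1732 against 2094 and 993, so its groups overlapped and its log2 fold change turned negative without Ascl5WT/WT replicate 1. Col11a2 had 0 and 459 against 1118 and 1992. Col24a1 (1640 and 0 against 972 and 137) and Col27a1 (1168 and 116.9 against 421 and 286) differed more between the Ascl5WT/WT libraries than between the genotypes. Summed over the 11 fibrillar genes, values were 41946 and 82274 in Ascl5WT/WT and 169088 and 105611 in Ascl5Mut/Mut, a ratio of means of 2.21, with 87.5% of the sum in Col1a2, Col5a1 and Col1a1.

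Type VI collagen forms beaded microfilaments around cells from the products of Col6a1, Col6a2 and Col6a3. Col6a3 (chromosome 1, 90765923 to 90843971, minus strand) had 1256 and 1611 in Ascl5WT/WT and 3756 and 4066 in Ascl5Mut/Mut, a log2 fold change of 1.38 (SE 0.57, limma adjusted p = 0.393). Both pairs of libraries were tight and did not overlap. Col6a2 had 2637 and 5687 against 8980 and 10130 (log2 fold change 1.27, SE 0.49, limma adjusted p = 0.366). Col6a1 had 1639 and 1875 against 3187 and 6737 (log2 fold change 1.35, SE 0.58, limma adjusted p = 0.43). All 3 chains were separate between genotypes, and the other type VI genes Col6a4, Col6a5 and Col6a6 had no value above 560. The sum over the 6 genes was 5531 and 9173 in Ascl5WT/WT and 17044 and 21342 in Ascl5Mut/Mut, a ratio of means of 2.61, the highest of the 6 named classes.

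FACIT collagens lie on the surface of fibrils. Col12a1 (chromosome 9, 79598991 to 79718831, minus strand), made in dense connective tissue and the periodontal ligament, had 3165 and 3120 in Ascl5WT/WT against 6778 and 6194 in Ascl5Mut/Mut. The pairs were tight and separate, with a log2 fold change of 1.02 (SE 0.46, limma adjusted p = 0.449). Col16a1, below the limit on the mean, had 0 and 346 against 1526 and 1571, about 10.9 and 11.6 estimated reads in the mutant libraries. Col14a1 had 219 and 1443 against 419 and 272, and Col22a1, a chain of tissue junctions, 972 and 1063 against 1247 and 282, both overlapping. The type IX chains of cartilage were low: Col9a1 had 560 in 1 Ascl5Mut/Mut library only, Col9a2 629 and 116.6 against 283 and 722, and Col9a3 109 in Ascl5WT/WT replicate 1.

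The short-chain network collagens form lattices. Col10a1, the collagen of hypertrophic cartilage, had 1309 and 3492 in Ascl5WT/WT and 3579 and 5368 in Ascl5Mut/Mut (log2 fold change 0.99, SE 0.61, limma adjusted p = 0.564). Ascl5WT/WT replicate 2 lay just under the mutant libraries. Col8a1, a chain of endothelial and corneal matrices, had 218 and 122.4 against 1376 and 951, which is at most 2 estimated reads in a control and 9.8 and 7.0 in the mutant libraries. It stayed below the limit on the mean. Col8a2 overlapped, with 108 and 712 against 573 and 0. Over the 7 cartilage chains the sums were 2817 and 6652 against 9837 and 10424, and Col10a1 held 46.2% of them.

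Basement membrane chains went the other way in part. Col18a1 (chromosome 10, 77052178 to 77166548, minus strand), whose C-terminal fragment is endostatin, had 4792 and 3855 in Ascl5WT/WT and 1426 and 1895 in Ascl5Mut/Mut. Both mutant libraries lay below both controls, with a log2 fold change of -1.32 (SE 0.55, limma adjusted p = 0.405). Col4a2, with Col4a1 a chain of the type IV network of all basement membranes, had 2571 and 2109 against 2489 and 718, an overlap. Its log2 fold change was -0.73 (SE 0.73, limma adjusted p = 0.721) and turned positive without Ascl5Mut/Mut replicate 2. Col4a1 had 651 and 470 against 963 and 1562, the opposite order to its partner, on at most 11.5 estimated reads a library. Col4a4, a chain of specialised basement membranes, hardly differed, with 1091 and 831 against 826 and 838. Col7a1, the anchoring fibril chain of stratified epithelium, had 425 and 115 against 1129 and 575. Col4a3, Col4a5, Col4a6 and Col15a1 had no value above 834 in any library. The class sum was 10730 and 7619 against 7952 and 5588, which overlapped.

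Of the transmembrane collagens, Col23a1 (chromosome 11, 51289920 to 51583918, plus strand) had 6407 and 4965 in Ascl5WT/WT and 2832 and 2228 in Ascl5Mut/Mut. All mutant values lay below all control values, with a log2 fold change of -1.13 (SE 0.50, limma adjusted p = 0.43). Col17a1, the hemidesmosome collagen of basal epithelial cells, had 2056 and 1877 against 1527 and 2259, within the spread (log2 fold change -0.07, SE 0.62, limma adjusted p = 0.974). Its sign changed without Ascl5Mut/Mut replicate 1. Col13a1 (216 and 480 against 1190 and 291) and Col25a1 (1288 and 478 against 588 and 1452) overlapped. Of the remaining chains, Col26a1 had 240 in 1 Ascl5WT/WT library, and Col28a1 was listed at 0 in the 4 libraries of this table.

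**Figure D2:**
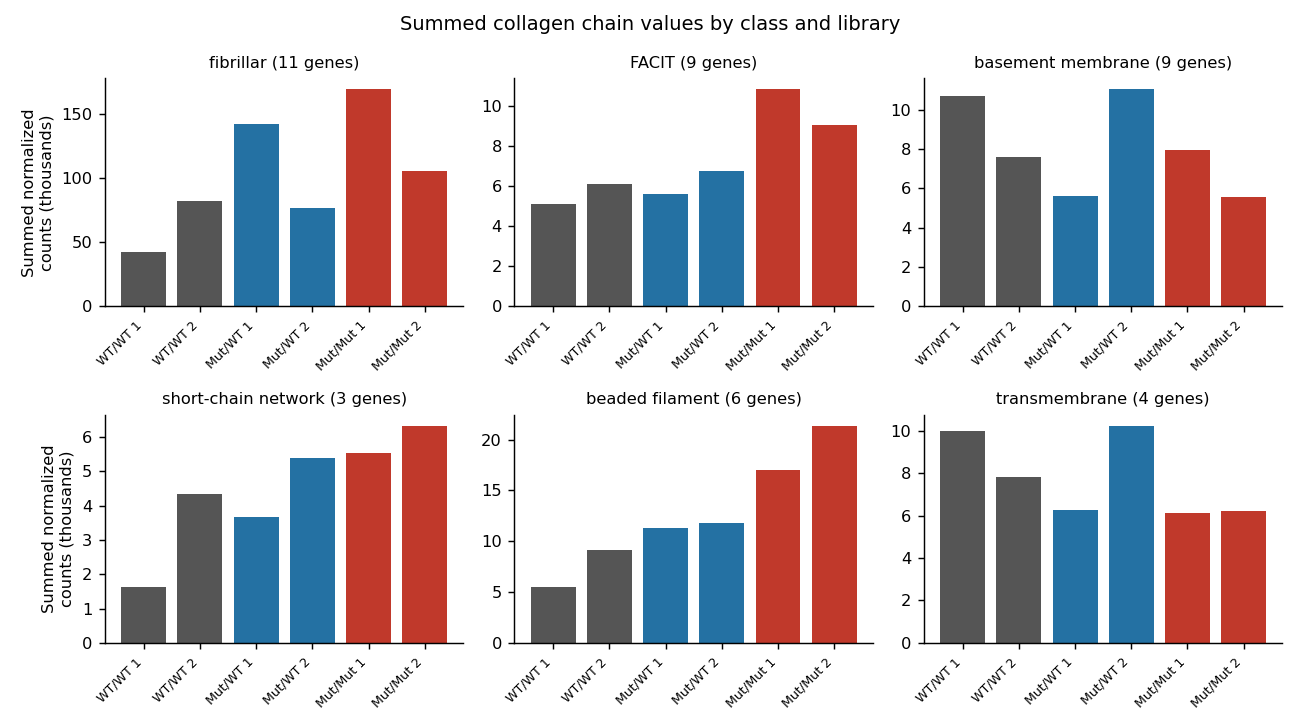
Summed normalized counts (axes start at 0) of the collagen chain genes of 6 classes in each library, with Ascl5WT/WT in grey, Ascl5Mut/WT in blue and Ascl5Mut/Mut in red. Ascl5WT/WT and Ascl5Mut/Mut values come from one table and Ascl5Mut/WT values from the other, which was normalized separately. Both Ascl5Mut/Mut bars exceed both Ascl5WT/WT bars for fibrillar, FACIT, short-chain network and beaded filament chains and are below them for transmembrane chains.

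In Ascl5Mut/WT molars again no chain passed the test. limma called 0 of 17 chains tested, where 0.549% of 2370 genes were called (13 genes), with a smallest adjusted p of 0.311 for Col1a1. A single chain, Col1a1, had an unadjusted p under 0.05 and a higher value, where 5.36% of all genes did, and 0 had one with a lower value, where 3.38% did. That count of 1 was 0 without Ascl5WT/WT replicate 1 or Ascl5Mut/WT replicate 1, 3 without Ascl5Mut/WT replicate 2 and 5 without Ascl5WT/WT replicate 2. Both Ascl5Mut/WT libraries lay above both controls for 6 chains (21.1% of all genes tested) and below them for 2 (19.5%). The median log2 fold change of the 17 was 0.57, against 0.04 over all genes tested, and it was 0.20 without Ascl5WT/WT replicate 1. Col1a1 had 12110 and 23827 in Ascl5WT/WT as scaled in this table and 45405 and 27288 in Ascl5Mut/WT, a log2 fold change of 1.05 (SE 0.37). Without Ascl5WT/WT replicate 2, limma called Col1a1 (1.53, adjusted p = 0.00548) and Col1a2 (1.76, adjusted p = 0.0061).

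Among the fibrillar chains Col1a2 overlapped in this table, with 8547 and 25314 in Ascl5WT/WT against 52618 and 16265 in Ascl5Mut/WT (log2 fold change 0.99, SE 0.49, limma adjusted p = 0.587). The Ascl5Mut/WT libraries differed from each other more for this chain than for Col1a1. Col3a1 had 2422 and 2719 against 5430 and 4866, with both pairs tight and separate (log2 fold change 0.97, SE 0.49, limma adjusted p = 0.587). Col5a2 had 664 and 2474 against 3029 and 2903 (log2 fold change 1.11, SE 0.65, limma adjusted p = 0.596). Col5a1 had 15138 and 27165 against 30013 and 20439, an overlap, and its log2 fold change of 0.29 turned negative without Ascl5WT/WT replicate 1. Col24a1 had the largest log2 fold change of the chains tested in this table, 1.55 with an SE of 1.61 (limma adjusted p = 0.772), from 1658 and 0 against 2143 and 687. Col27a1 had 1188 and 121.7 against 127.5 and 2712, and its log2 fold change of 0.57 (SE 1.93) is the median of the 17. Both chains differed widely within each genotype, and without Ascl5WT/WT replicate 2 their log2 fold changes were -0.40 and -0.64. Summed fibrillar values were 42501 and 85299 against 141930 and 76272, so replicate 2 of Ascl5Mut/WT was below replicate 2 of Ascl5WT/WT.

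In the other classes of Ascl5Mut/WT, Col6a1 had 1662 and 1945 against 1767 and 1967 (log2 fold change 0.05, SE 0.61). Col6a2 (2634 and 5811 against 7321 and 6978) and Col6a3 (1234 and 1619 against 1946 and 2672) lay above the controls without passing (limma adjusted p = 0.594 and 0.765). Col12a1 had 3224 and 3251 against 3673 and 5156 and Col10a1 1321 and 3605 against 3292 and 4547, of which only Col12a1 was separate. Col18a1 had 4839 and 3982 against 1193 and 3112, below the controls (log2 fold change -1.13, SE 0.56, limma adjusted p = 0.577). Col4a2 was also lower in both, with 2603 and 2184 against 1139 and 2150, though its replicate 2 values were nearly equal. Col4a4 had 1104 and 860 against 631 and 1535, a log2 fold change of 0.02 that was -0.14 without Ascl5WT/WT replicate 2. Col23a1, separate in Ascl5Mut/Mut, overlapped here with 6557 and 5198 against 4327 and 5967. Col17a1 spread widely in Ascl5Mut/WT, with 506 and 2972 against 2082 and 1945.

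**Figure D3:**
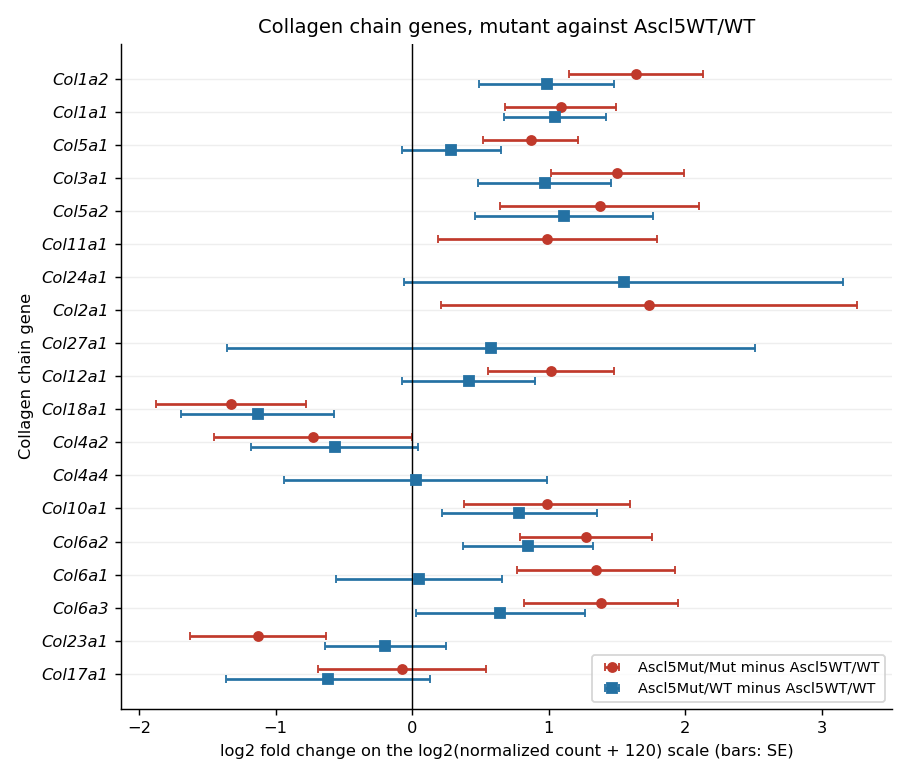
Log2 fold changes of the collagen chain genes tested, with bars of 1 SE from limma, for Ascl5Mut/Mut (red circles) and Ascl5Mut/WT (blue squares) against Ascl5WT/WT, on the log2(normalized count + 120) scale. Both comparisons share the Ascl5WT/WT libraries. Every chain tested in both comparisons lies on the same side of 0 in both, some with bars that cross 0. Col4a2, Col17a1, Col18a1 and Col23a1 lie to the left and the others to the right. No chain passed the adjusted threshold in either comparison.

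Genes that fold, process, bind or degrade collagen were examined beside the chains, with 7 lists chosen from textbook roles. Of the 30 genes tested for Ascl5Mut/Mut, limma called 2, Postn and Ctsk, and of the 31 for Ascl5Mut/WT it called 0, where 0.856% and 0.549% of all genes tested were called. Log2 fold changes were above 0 for 49.2% of all genes tested in Ascl5Mut/Mut and for 52.1% in Ascl5Mut/WT, beside which the counts above 0 in the lists stand. Genes that passed the limit on the mean only through mutant values, such as Ctsk, Mmp9 and Tnc in Ascl5Mut/Mut, are favoured in these counts and medians. Neither call was made without Ascl5Mut/Mut replicate 1 (adjusted p = 0.375 for both), without replicate 2 (0.308 for Postn and 0.359 for Ctsk), with a pseudocount of 1 (0.0762 and 0.0966) or with a minimum mean of 10 (0.576 and 0.311). Among proteins that bind fibrils (9 of 16 tested, median log2 fold change 1.20, 8 above 0), Postn, a matricellular protein of the follicle and periodontal ligament, rose from 2406 and 2024 to 16124 and 11457 in Ascl5Mut/Mut (limma adjusted p = 0.0356). Sparc, which binds collagen, had 1209 and 2493 against 9099 and 7085, and Fn1 5008 and 5059 against 11089 and 7276, with no call. The sums of this list were 17762 and 20383 in Ascl5WT/WT, 59878 and 48575 in Ascl5Mut/Mut, and 35486 and 23210 in Ascl5Mut/WT.

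Among collagen-degrading proteins and their inhibitors (5 of 13 tested, median 0.95, 4 above 0 in Ascl5Mut/Mut), Ctsk, the collagenolytic protease of osteoclasts, rose from 109 and 120 to 11106 and 7277 (limma adjusted p = 0.0151). Ctsk reached the limit on the mean only through mutant values in both comparisons, so it could be called only as higher. In Ascl5Mut/WT Ctsk had 4831 and 1338 (limma adjusted p = 0.461). There 1 of 5 genes tested in this list was above 0, Ctsk itself, with a median of -0.08. The sums of the list overlapped in that table (4219 and 13726 against 17698 and 9509). Timp3, a protease inhibitor, had 1313 and 4740 against 5157 and 4835 in Ascl5Mut/Mut, where replicate 2 of both genotypes was nearly equal. Mmp2, a gelatinase, had 760 and 3429 against 1818 and 3330.

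The proteins that fold and modify collagen had sums of 31833 and 32640 in Ascl5WT/WT and 37856 and 36776 in Ascl5Mut/Mut, and single genes differed in direction. Of 25 such genes 8 were tested in Ascl5Mut/Mut, with 2 above 0 and a median of -0.65, and in Ascl5Mut/WT 4 of 8 were above 0 with a median of 0.01. P4hb, a subunit of prolyl 4-hydroxylase and a disulfide isomerase, had 10634 and 6388 in Ascl5WT/WT, 15848 and 17585 in Ascl5Mut/Mut (limma adjusted p = 0.368) and 13080 and 13386 in Ascl5Mut/WT. The chaperones Hspa5 (5179 and 7246 against 4176 and 3360) and Hsp90b1 (4861 and 5623 against 3449 and 3342) were lower in both Ascl5Mut/Mut libraries without a call. The crosslinking list had 2 of 6 genes tested, with Loxl3, a lysyl oxidase, at 1977 and 471 against 3197 and 3737 in Ascl5Mut/Mut and 3910 and 2495 in Ascl5Mut/WT (limma adjusted p = 0.43 and 0.518). Its relatives Loxl4 (546 and 4759 against 4039 and 413) and Loxl2 (0 and 1912 against 1260 and 137) overlapped. In the secretion and processing list 1 of 14 genes was tested, Mia3, a receptor that loads procollagen into transport vesicles (3504 and 482 against 2521 and 2286), and Bmp1, the procollagen C-proteinase, had 229 and 121.9 against 1018 and 1105.

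Of 11 collagen receptors 4 were tested, all above 0 in Ascl5Mut/Mut (median 0.76) and none called. In Ascl5Mut/WT 3 of 4 were above 0 (median 0.58) and none called, and Itgb1 overlapped with 5474 and 6525 against 6880 and 3606. In Ascl5Mut/Mut Itgb1, the shared beta subunit of the collagen-binding integrins, had 5359 and 6244 against 7767 and 8847. Itga11, its partner on fibroblasts, had 770 and 584 against 2224 and 977, and Ddr2, the fibrillar collagen receptor kinase, 986 and 365 against 1672 and 1473. Among 15 basement membrane partners only Hspg2 (perlecan) was tested. It had 757 and 1635 in Ascl5WT/WT, 2189 and 3025 in Ascl5Mut/Mut and 3406 and 4902 in Ascl5Mut/WT (limma adjusted p = 0.293 in Ascl5Mut/WT), above the controls where Col18a1, also a heparan sulfate proteoglycan of basement membranes, was below them.

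Sums of osteoblast, dental follicle and osteoclast markers were higher in all mutant libraries than in the controls of their table. More cells of a type and more RNA per cell cannot be told apart in bulk tissue. Sums of 9 osteoblast markers were 3383 and 8693 in Ascl5WT/WT, 36976 and 27909 in Ascl5Mut/Mut and 28291 and 11072 in Ascl5Mut/WT. In the Ascl5Mut/Mut comparison the 4 libraries took the same order in this sum as in the fibrillar sum, and in the Ascl5Mut/WT comparison the replicate 2 libraries changed places. Ibsp, bone sialoprotein, had 329 and 5488 against 21832 and 19262 in Ascl5Mut/Mut, while Dmp1 and Phex were at 0 in both Ascl5WT/WT libraries. Sums of 6 dental follicle markers were 4598 and 3556 in Ascl5WT/WT, 23536 and 17512 in Ascl5Mut/Mut and 9897 and 9077 in Ascl5Mut/WT. Postn and Tnc, also in the fibril list, made up most of the Ascl5Mut/Mut sums. Gli1 went the other way there (444 and 471 against 0 and 0), and Tnn overlapped (1204 and 942 against 1396 and 554). Pth1r and Pthlh were at 0 in Ascl5WT/WT, and Pth1r had 140 and 0 and Pthlh 0 and 0 in Ascl5Mut/Mut. Sums of 9 osteoclast markers, which include Ctsk, were 430 and 359, then 17323 and 11955 in Ascl5Mut/Mut and 8334 and 2169 in Ascl5Mut/WT, with Dcstamp, Ocstamp, Calcr and Oscar at 0 in all libraries. In the controls the follicle sum was higher in replicate 1 and the collagen sum in replicate 2. The osteoclast sums of the controls were near the floor of 3 reads (326 and 360 normalized counts), so their order cannot be read. The part of osteoblasts, follicle cells and osteoclasts in the collagen values was not tested.

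Muscle, cartilage, pericyte and general epithelial sums overlapped between Ascl5Mut/Mut and its controls, and other lists were separate. Sums of 8 skeletal muscle markers were 543 and 10388 in Ascl5WT/WT, 88219 and 4408 in Ascl5Mut/Mut and 23135 and 6621 in Ascl5Mut/WT, led by the developmental myosin heavy chains Myh8 and Myh3, with Myod1 at 0 in all libraries. In the Ascl5Mut/Mut comparison Ascl5WT/WT replicate 1 was lowest and Ascl5Mut/Mut replicate 1 highest in both the muscle sum and the collagen sum. The replicate 2 libraries changed places: the muscle sum was higher in Ascl5WT/WT, while the collagen sum was 117520 in Ascl5WT/WT and 154131 in Ascl5Mut/Mut. Sums of 9 cartilage markers were 2607 and 3153, then 2785 and 3372 in Ascl5Mut/Mut and 2026 and 1082 in Ascl5Mut/WT, with Matn1, Matn3 and Comp at 0 throughout. Endothelial markers (10 genes) summed to 477 and 1418 against 1659 and 1674 in Ascl5Mut/Mut, with Tie1, Cldn5, Emcn and Esam at 0 in all libraries. General epithelial markers (8 genes, with Dsp, Krt14 and Trp63 the highest) summed to 58211 and 48095 against 15668 and 77731 in Ascl5Mut/Mut, where replicate 1 was the lowest of the 4 and Dsp made up 40760 of the replicate 2 sum. Of the 7 genes tested in that list, 1 had both Ascl5Mut/Mut values above both control values, where 22.0% of all genes tested did. This was Krt15, with 0 and 0 against 823 and 5974 (limma adjusted p = 0.538), which reached the limit on the mean only through mutant values. Another 3 had both values below both control values without a call, where 21.8% of all genes tested did. They were Trp63, a transcription factor of basal epithelium (21134 and 13756 against 1049 and 5829, limma adjusted p = 0.145), Krt17 (4638 and 7184 against 272 and 1864, limma adjusted p = 0.221) and Krt5 (2304 and 1759 against 824 and 987, limma adjusted p = 0.594), of which Krt17 and Krt5 were picked after their values were seen. Keratinized oral epithelium markers (8 genes, led by Krt4 and Krt13) summed to 109 and 306 against 19098 and 121684, with replicate 2 the highest, and to 13437 and 45083 in Ascl5Mut/WT. In this list limma called Krt4 (adjusted p = 0.0151), Krt13 (0.0271) and Rptn (0.0403) higher in Ascl5Mut/Mut. In Ascl5Mut/WT limma called Krt4 (adjusted p = 2.61e-04) and Krt13 (0.0062) higher. Their Ascl5WT/WT values were 109 and 0 (Krt4), 0 and 306 (Krt13) and 0 and 0 (Rptn). They reached the limit on the mean only through mutant values, so they could be called only as higher. None of these calls was made without either mutant library or with a pseudocount of 1, and Rptn was also lost with equal library totals (adjusted p = 0.0543). The calls in Ascl5Mut/Mut were lost with a minimum mean of 10 as well (adjusted p = 0.44 for Krt4 and Rptn and 0.576 for Krt13). Odontoblast markers (4 genes) summed to 1412 and 466 against 2383 and 3746 in Ascl5Mut/Mut, where Dspp of that list was at 0 and 0. In Ascl5Mut/WT Dspp rose to 14045 and 8122 (limma adjusted p = 3.99e-04). This call was lost without either Ascl5Mut/WT library and with a pseudocount of 1 (limma adjusted p = 0.286). Dspp too reached the limit on the mean only through mutant values, so it could be called only as higher. Macrophage markers (7 genes) summed to 110 and 1205 against 2374 and 2878, Schwann cell markers (6 genes) to 104.8 and 0 against 3501 and 864, and pericyte and smooth muscle markers (6 genes) to 2723 and 1539 against 979.5 and 3895. Counted over the 12 marker lists, both Ascl5Mut/Mut sums exceeded both control sums for 8 and were below them for 0, and in Ascl5Mut/WT this was so for 6 and 1. The part of these tissues in the collagen values was not tested either.

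**Figure D4:**
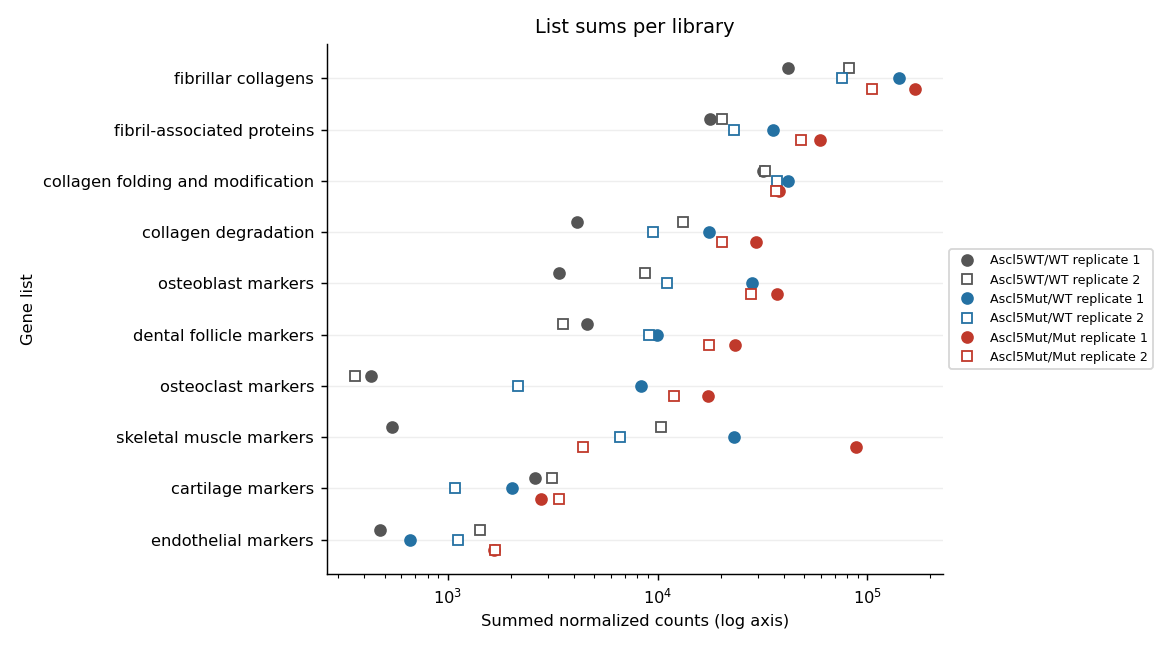
Summed normalized counts (log axis) of the fibrillar collagens and of 9 partner and marker lists in each library. Grey is Ascl5WT/WT, blue Ascl5Mut/WT and red Ascl5Mut/Mut, with filled circles for replicate 1 and open squares for replicate 2, and the Ascl5Mut/WT values come from the separately normalized table. Sums of the collagen folding list lie close together in the 6 libraries, while those of the osteoblast and osteoclast lists are far apart, and the skeletal muscle sum is highest in Ascl5Mut/Mut replicate 1.

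The positions of the genes add a second grouping. The 44 genes lie on 15 chromosomes, and 8 pairs of them, with 15 genes in all, are neighbours within 100 kb. Of these pairs 3 are type IV genes that start head to head: Col4a1 and Col4a2 (chromosome 8, overlapping by 22 bases), Col4a4 and Col4a3 (chromosome 1, 71 bases apart) and Col4a6 and Col4a5 (chromosome X, 1308 bases apart). In Ascl5Mut/Mut the first pair did not move together, as the per-length ratio of Col4a1 to Col4a2 was 0.25 and 0.22 in Ascl5WT/WT and 0.38 and 2.12 in Ascl5Mut/Mut, on few reads. Col3a1 and Col5a2 lie tail to tail on chromosome 1, 24614 bases apart, and both were higher in the mutant libraries of both genotypes than in either control. Col6a2 and Col6a1 lie on the same strand of chromosome 10, 85161 bases apart, and both were higher in Ascl5Mut/Mut.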

How the data were processed

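RNA of 6 libraries was made with a stranded kit, per the labels' protocols. The authors deposited normalized gene counts, a linear signal. DESeq2 and mm10 are named in the submitters' processing notes, while the sources used here name no aligner, annotation or strand setting. Between the tables the same Ascl5WT/WT library differed by gene-dependent ratios (for the collagen chains 0.983 to 1.04 in replicate 1 and 1.005 to 1.06 in replicate 2), so the scaling was not 1 factor per library and whole reads were not recovered.

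Mutant and Ascl5WT/WT libraries were compared within a table by limma 3.58.1 (R 4.3.3) with an intensity trend, two-sided, on log2(normalized count + 120) over all genes whose mean reached 1000, with Benjamini-Hochberg adjustment and a threshold of 0.05. The script was tested on simulated data with 200 changed genes. For Ascl5Mut/Mut it called 3.75% of simulated 4-fold changes and 34.8% of 16-fold changes. For Ascl5Mut/WT these shares were 9.55% and 53.65%. Most 4-fold changes were thus missed, and a missing call says little about a chain. Coordinates, exons and lengths came from GENCODE M21 (GRCm38) and promoters from RefSeq. Alternatives were another pseudocount, another minimum mean, equal library totals, a replicate block and leaving out each library. All chains were accounted for; genes named from other lists were those called or with the highest mean, up to 3 a list. The members, lists and settings were chosen with earlier results of these data known.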

Additional observations from a re-analysis of the deposited data

How the results depend on the processing

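No collagen chain was called in either comparison under a pseudocount of 1, a minimum mean of 10, both together, equal library totals or the replicate block. Leaving out 1 library gave 0 to 3 called chains in Ascl5Mut/Mut and 0 to 2 in Ascl5Mut/WT, all of them without Ascl5WT/WT replicate 2. The median log2 fold change of the chains tested ranged from 0.68 to 1.49 over those fits in Ascl5Mut/Mut and from 0.20 to 0.62 in Ascl5Mut/WT. It was 0.41 in Ascl5Mut/WT with a minimum mean of 10, where 39 chains were tested. Over all genes, the 20 calls in Ascl5Mut/Mut became 4 with a pseudocount of 1, 1 with a minimum mean of 10, 0 with both and 0 to 74 without 1 library (0 without Ascl5Mut/Mut replicate 1, 74 without Ascl5WT/WT replicate 2). The 13 calls in Ascl5Mut/WT became 8 with a pseudocount of 1, 0 with both and 0 to 66 without 1 library (0 without Ascl5Mut/WT replicate 2, 66 without Ascl5WT/WT replicate 2). The cause of these changes was not tested. With the replicate number as a block the calls were 36 and 37. Same-numbered libraries did not deviate together (correlation -0.01 and 0.02), so the numbers were not taken as pairs. No sign of a chain's fold change turned under any setting that kept all 4 libraries. Depth limits all of this: members under a mean of 1000, about 7 to 9 estimated reads, were not tested, and a missing call does not show that a chain did not differ.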
